A study of Arabidopsis thaliana with 42 samples.

Results

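The response of wild type Arabidopsis thaliana leaves (ecotype Col-0) to Pseudomonas syringae pv. maculicola ES4326 (Pma) was measured 24 h after infiltration, as the change from mock infiltrated leaves of the same experiment. The 3 wild type Pma libraries and the 3 wild type mock libraries were taken by their labels, which makes 6 of the 42 libraries of the series. Their replicate numbers name 3 independent experiments, so each Pma library was paired with the mock library of its own experiment. The whole series held 7 genotypes, each with mock and Pma leaves from all 3 experiments (14 groups), and the other genotypes were used here only to estimate the spread and for the comparisons with cbp60a and sid2. The labels give the wild type groups no allele, transgene or chemical beside the inoculum. The plants, 30 days old, came from chambers set to 22 °C, a relative humidity of 75% and days with 12 h light. Mock leaves received 5 mM magnesium sulfate, and Pma leaves received bacteria in the same solution at an optical density (OD600) of 0.0002. A sample was 2 leaves out of leaf numbers 6 to 8, so it held every cell type of the infiltrated leaf, and any bacterial RNA was not analysed here.

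Pma is a virulent bacterium for this ecotype: it multiplies between the leaf cells, injects effector proteins and makes coronatine, a toxin that mimics the active form of jasmonate. The plant answers through receptors at the cell surface and inside the cell, calcium-dependent and mitogen-activated kinases, WRKY and NAC transcription factors, and the hormones salicylic acid, N-hydroxypipecolic acid and jasmonate. Leaf cells under attack are known to turn down photosynthesis and growth genes while these defence outputs rise.

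The libraries were made by Smart-3SEQ, which counts tags from the 3′ ends of polyadenylated transcripts. The mock libraries held 1710141, 1582231 and 1241254 counts in experiments 1, 2 and 3, and the Pma libraries held 1542709, 1042600 and 1637213. Between 16837 and 18177 of the 24843 loci had at least 1 count in these libraries. Levels below are CPM, the usual counts-per-million unit, on the TMM-scaled (trimmed mean) library size, given in the order of experiments 1, 2 and 3. Effects are fitted log2 fold changes of Pma over mock ± SE (edgeR, blocked by experiment, n = 3 experiments). A gene is said to have risen or fallen where its Benjamini-Hochberg adjusted p over all 15161 tested genes was under 0.05. Members that are named because their list had 5 or fewer in a direction, and other genes outside the fixed naming rule, were chosen after their values were seen. The labels do not say whether the leaves of an experiment came from different plants than its other leaves.

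Infection moved most of the measured transcriptome. Of 15161 tested genes, 10051 (66.3%) changed, with 4900 higher (32.3%) and 5151 lower (34.0%) in Pma leaves. Counts of list members below are to be read beside these shares. A change of more than 2-fold, tested against that threshold with glmTreat, was found for 6203 genes (40.9%), of which 2719 were higher (17.9%) and 3484 lower. The genes that rose had a median log2 fold change of 1.66 and those that fell a median of -2.29, against -0.02 over all tested genes. Fitted changes of more than 16-fold were reached by 849 genes that rose and 1122 that fell. At the ends of this range, 110 loci had no count in any mock library and at least 10 in each Pma library, and 87 loci showed the reverse. When libraries were scaled by their totals alone, the median of all genes stood 0.40 higher (log2) and 60.5% of the called genes were higher, against 48.8% with TMM, while none of the 9040 genes called in both ways had opposite signs. Fold changes below are relative to the TMM scale.

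The make-up of the libraries changed with the response. In mock leaves 225, 175 and 183 loci were enough to hold 50% of all counts, whereas in Pma leaves 774, 685 and 654 loci were needed. The 10 most abundant loci held 12.3% to 13.2% of the counts in mock and 6.38% to 7.68% in Pma. Of the 100 most abundant genes of mock leaves, 95 fell, 2 rose and 3 were not called. Of the 100 most abundant genes of Pma leaves, 74 rose, 40 of them from a mean under 100 CPM in mock, and 19 fell. The lists share 24 genes, and genes above 1000 CPM numbered 139 in mock and 78 in Pma.

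The 3 experiments gave like ratios. Within-experiment log2 ratios of Pma over mock correlated across genes at Pearson r = 0.909 between experiments 1 and 2, 0.924 between experiments 1 and 3 and 0.914 between experiments 2 and 3, where genes are not independent replicates. Of the 10051 called genes, 9791 (97.4%) had 1 sign in all 3 experiments. Experiment 2 alone had another sign than the fitted change for 131 of the other genes, experiment 3 alone for 70 and experiment 1 alone for 57. The CPM of mock and Pma groups did not overlap for 10005 of all tested genes (66.0%) and for 9305 of the called ones.

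**Figure D1:**
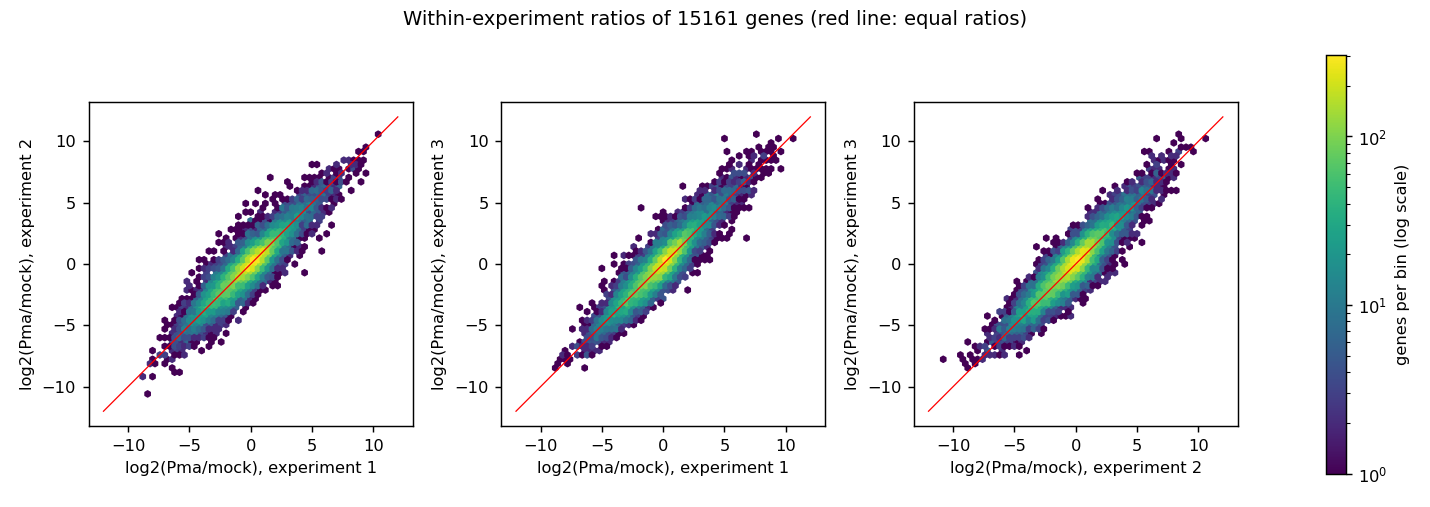
Within-experiment log2 ratios of Pma over mock (prior count 2) for 15161 genes, each panel plotting 1 experiment against another, with colour for the number of genes per bin on a log scale. The genes lie along the red line of equal ratios, with Pearson r of 0.909, 0.924 and 0.914 across genes.

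The largest amounts of transcript lost in infected leaves belonged to photosynthesis. All 12 of the largest losses of mean CPM encode antenna proteins, a photosystem subunit or Rubisco. LHB1B2, a chlorophyll a/b binding protein of the photosystem II antenna and the most abundant transcript of mock leaves, was at 23225, 27086 and 24022 CPM in mock and 2915, 5243 and 5381 CPM in Pma. It fell in every experiment by a fitted log2 change of -2.50 ± 0.40 (adjusted p = 2.06e-06) and still ranked the ninth in Pma leaves. RBCS1A, a small subunit of Rubisco, went from 19122, 14988 and 20806 CPM in mock to 1350.2, 888 and 1113 CPM in Pma (-4.04 ± 0.48, adjusted p = 9.75e-09). CAB2 (LHCB1.1), another antenna gene, went from 7494, 9755 and 9457 CPM to 209.6, 560.3 and 439 CPM (-4.52 ± 0.60, adjusted p = 9.26e-08). The groups did not overlap for any of these genes. CAB1, CAB2 and CAB3 are near-identical neighbours, as are LHB1B1 and LHB1B2, so the split of tags within each set is uncertain.

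The loss covered the photosynthetic lists whole. All 21 antenna genes fell (median -4.17), as did all 24 tested nuclear photosystem genes (median -3.33), all 18 Calvin cycle genes (median -4.44) and all 12 tested photorespiration genes (median -3.43), against 34.0% of all tested genes. Antenna genes held 14.3, 16.6 and 15.3% of all counts in mock and 1.26, 1.67 and 1.68% in Pma. Calvin cycle genes held 5, 4.93 and 5.36% in mock and 0.488, 0.403 and 0.497% in Pma. Neither share overlapped between the groups, and an exact permutation test of 3 against 3 libraries cannot go below p = 0.1 for such shares. The depth of the fall differed between members. Lhca6, an antenna protein that links photosystem I to the NADH dehydrogenase-like complex, was at 205, 205 and 224 CPM in mock and 0.535, 0 and 1.12 CPM in Pma, a ratio of 342-fold (117 to 1664), with 3 counts left over the Pma libraries. PnsB3 and PnsL3, subunits of that complex, were in the same state: PnsB3 went from 148, 125 and 176 CPM to 0, 0 and 0.559 CPM, and PnsL3 from 42.8, 38.6 and 49.6 CPM to 0 in all 3 libraries, at least 70.3-fold lower. RPE, the ribulose-phosphate epimerase of the Calvin cycle, kept more, with 675, 713 and 788 CPM in mock and 199, 192 and 224 CPM in Pma (-1.82 ± 0.19, adjusted p = 7.23e-10). FBA5, a fructose-bisphosphate aldolase outside that list and among the 12 largest fold falls, went from 793, 703 and 739.5 CPM to 0.535, 0 and 1.12 CPM, a ratio of 1218-fold (416 to 5910.0). SBPASE, a bisphosphatase of the Calvin cycle, went from 788, 812 and 829 CPM to 17.6, 25.2 and 31.9 CPM (-5.07 ± 0.53). Here and below, fewer cells and less RNA per cell cannot be told apart in leaf samples.

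Chlorophyll genes split by direction. Of 15 synthesis genes 14 fell and none rose (median -4.29, or -4.26 once genes without counts in a group are set to their bound). HEMA1, the first committed enzyme of tetrapyrrole synthesis, went from 491, 916 and 941 CPM to 58.3, 108 and 109 CPM (-3.09 ± 0.27, adjusted p = 4.65e-11). PCB2, a divinyl reductase, went from 85, 53.8 and 111 CPM to 0.535, 0.814 and 0.559 CPM, a ratio of 132-fold (44.9 to 646). Of 10 breakdown genes 7 rose and 3 fell (ACD2, NOL and HCAR; median 1.7). NYE1, the magnesium dechelatase that opens breakdown, rose from 9.73, 21.1 and 10.3 CPM to 75.4, 119 and 129 CPM (3.01 ± 0.33, adjusted p = 2.47e-09), and PPH (pheophytinase) and ACD1 (pheophorbide a oxygenase), which act after it, rose by 2.32 ± 0.28 and 2.41 ± 0.29. ACD2, the red chlorophyll catabolite reductase that follows ACD1 in the pathway, fell from 92.8, 93.8 and 83.2 CPM to 21.4, 13.8 and 24.6 CPM (-2.19 ± 0.30, adjusted p = 1.66e-07). For each of these genes the lowest value of one group lay above the highest of the other.

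Plastid-encoded transcripts fell too, with a smaller median than the nuclear lists. Of 72 tested plastid genes 64 fell and none rose (median -1.35), and their share of the counts went from 5.76, 5.18 and 7.06% in mock to 2.94, 4.49 and 2.82% in Pma. Experiment 2 had the lowest share of the mock libraries and the highest of the Pma libraries. Of 10 tested mitochondrial genes 2 fell, ATMG00070 (-0.46 ± 0.17) and ATMG01370 (-0.88 ± 0.35), and neither call held when libraries were scaled by their totals (-0.06 and -0.50). Without the mock library of experiment 3 the change of ATMG01370 was 0.02. The mitochondrial median was -0.38, and their share overlapped between the groups, at 0.0388, 0.0396 and 0.0649% in mock and 0.0387, 0.0751 and 0.0368% in Pma. The difference between plastid and nuclear lists was not tested, and a library that selects polyadenylated 3′ ends samples organelle transcripts only in part.

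**Figure D2:**
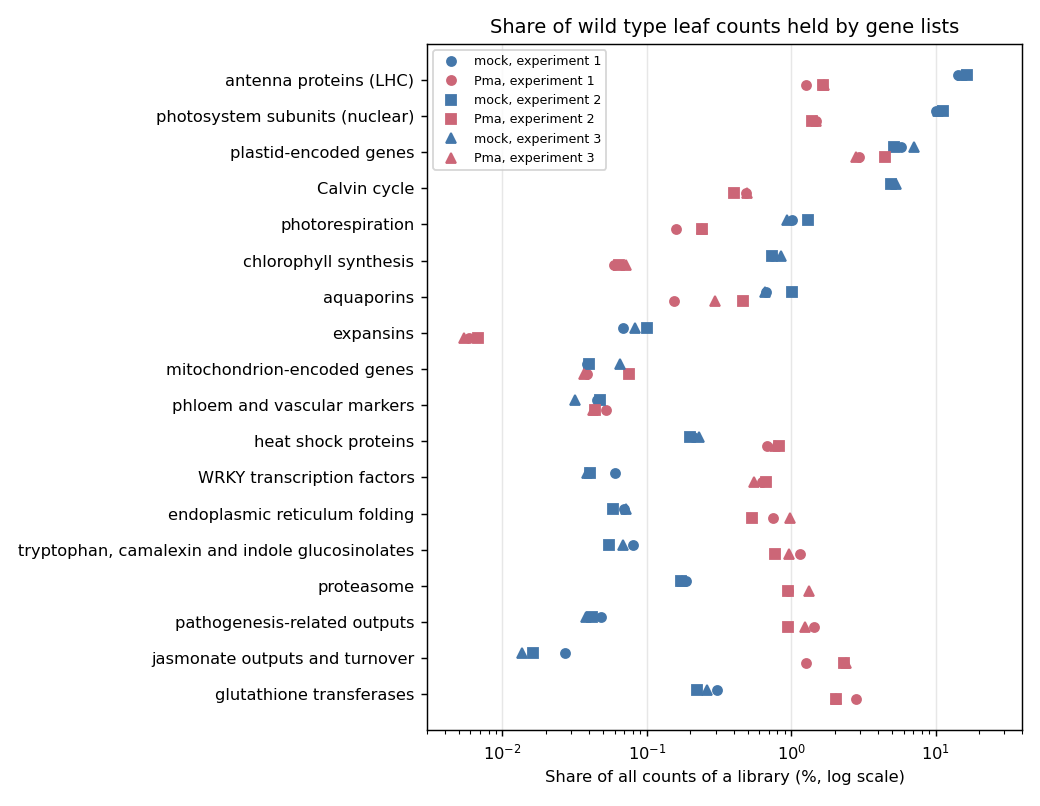
Percent of all counts of a library (log scale) held by 18 gene lists, with mock libraries in blue, Pma libraries in red and a marker shape for each of the 3 experiments. Antenna genes go from 14.3% to 16.6% in mock down to 1.26% to 1.68% in Pma, glutathione transferases rise from 0.222% to 0.306% up to 2.04% to 2.80%, and the mitochondrial and phloem lists overlap between the groups.

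Starch genes mostly fell and sugar transporter genes moved in both directions, beside 32.3% higher and 34.0% lower of all tested genes. Of 19 starch genes 16 fell and 3 rose (median -3.19). PGM, the plastid phosphoglucomutase that feeds starch synthesis, went from 98, 25.5 and 85.1 CPM to 1.6, 0 and 0.559 CPM (-6.38 ± 0.54, adjusted p = 5.84e-12), its mock value in experiment 2 being the lowest. Genes of starch synthesis (SS1, -3.51 ± 0.31, and SBE2.2, -3.67 ± 0.34) and of breakdown (SEX1, DPE1 and PHS1, between -4.38 ± 0.51 and -5.24 ± 0.62) fell alike. The secreted alpha-amylase gene AMY1 rose by 4.72 ± 0.77, and the others that rose were the beta-amylase genes BAM1 and BAM5. Among sugar exporters of the SWEET family 3 of 7 tested members rose (SWEET4, SWEET11 and SWEET12) and 4 fell (SWEET1, SWEET2, SWEET13 and SWEET17). SWEET12, a sucrose exporter, rose from 10.4, 2.91 and 4.67 CPM to 156, 157 and 159 CPM (4.87 ± 0.80, adjusted p = 3.28e-06), and its 3 Pma values were nearly equal. SWEET17, a vacuolar fructose transporter, fell from 46.7, 43.6 and 48.6 CPM to 6.42, 4.89 and 4.47 CPM (-3.14 ± 0.50). The hexose importer gene MSS1 (STP13), a known point of competition for apoplastic sugar, rose from 35.7, 7.27 and 20.6 CPM to 620.3, 443 and 714 CPM (4.97 ± 0.49, adjusted p = 3.05e-10). SWEET15 had 1 count in the mock libraries and 3 in the Pma libraries and was not tested.

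Of 19 nitrogen genes 7 rose, 6 fell and 6 were not called, which is near the 32.3% higher and 34.0% lower of all tested genes, so the counts set this list apart in neither direction. GS2, the plastid glutamine synthetase, fell from 1277, 1344 and 1242 CPM to 206, 268 and 235 CPM (-2.46 ± 0.30), and ASN2, an asparagine synthetase, from 92.1, 98.2 and 112 CPM to 2.67, 2.44 and 1.68 CPM (-5.42 ± 0.60). GDH2, a glutamate dehydrogenase that releases ammonium, rose from 16.9, 10.9 and 9.35 CPM to 201, 88 and 270.5 CPM (3.79 ± 0.41, adjusted p = 1.51e-09), and the ammonium importer gene AMT1;1 rose from 47.4, 47.3 and 33.7 CPM to 413, 246 and 293 CPM (2.84 ± 0.35). These 4 genes did not overlap between the groups.

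Salicylic acid genes rose from low levels. Of 23 tested genes of synthesis and signalling 20 rose and 1 fell (NIMIN-3; median 2.91), against 32.3% and 34.0% of all tested genes. ICS1 (listed as EDS16), which makes isochorismate, was at 16.9, 20.4 and 15.9 CPM in mock and 390.4, 460.2 and 770.0 CPM in Pma, highest in experiment 3. PBS3, which couples isochorismate to glutamate in the next step, went from 3.24, 6.55 and 1.87 CPM to 640.1, 703 and 1169.6 CPM, also highest in experiment 3, and rose by 7.63 ± 0.63 (adjusted p = 1.84e-11). The fitted rise of ICS1 was 4.86 ± 0.48 (adjusted p = 2.99e-10). PAD4, a lipase-like protein that acts upstream of salicylic acid, rose from 9.73, 16 and 7.48 CPM to 252, 325 and 325 CPM (4.74 ± 0.48). NPR1, the salicylic acid receptor and co-activator, rose less, from 21.4, 29.1 and 34.6 CPM to 71.1, 72.5 and 81.6 CPM (1.41 ± 0.27, adjusted p = 2.42e-05). The groups of none of these genes overlapped.

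Genes of N-hydroxypipecolic acid, the mobile signal of systemic resistance, rose from few or no counts. FMO1, which makes the active compound, had no count in any mock library and 870.0, 869.8 and 766 CPM in Pma, at least 1105-fold higher when the mock group is given 3 counts. ALD1, the aminotransferase that starts the pathway, went from 0, 1.45 and 1.87 CPM to 604, 757 and 1588 CPM (9.73 ± 1.00, adjusted p = 2.08e-10), with its highest Pma value in experiment 3. UGT76B1, which attaches glucose to salicylic and N-hydroxypipecolic acid, had no mock count and 342, 323 and 191 CPM in Pma, at least 374-fold higher. All 4 members tested rose, among them AT5G52810, from 16.9, 15.3 and 15.9 CPM to 263, 292 and 317 CPM (4.17 ± 0.49).

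All 10 pathogenesis-related outputs tested rose (median 4.14). PR1, the usual marker of the salicylic acid response, was at 3.89, 1.45 and 4.67 CPM in mock and 7305, 4451 and 6903 CPM in Pma, and became the most abundant transcript of the Pma library of experiment 1. Its fitted rise was 11.10 ± 1.55 (adjusted p = 2.07e-07). BGL2 (PR2), a beta-1,3-glucanase, went from 13.6, 9.46 and 15.9 CPM to 1227, 709 and 1779 CPM (6.62 ± 1.00), lowest among Pma leaves in experiment 2 as PR1 was. GRX480, a glutaredoxin of the salicylic acid response, went from 0.649, 0.727 and 0.935 CPM to 164, 170.2 and 219.6 CPM, a ratio of 247-fold (84.2 to 1199). TRX5, a thioredoxin that reduces NPR1, rose from 48.7, 45.8 and 32.7 CPM to 3036, 4044 and 5977 CPM (6.66 ± 0.73, adjusted p = 2.34e-09). Other outputs among the largest CPM gains were AIG1 (AVRRPT2-INDUCED GENE 1), from 13, 10.2 and 3.74 CPM to 3244, 3762 and 3079.5 CPM (8.53 ± 0.94), ECS1, from 1803, 2569 and 1423 CPM to 5335, 7894 and 8251 CPM (1.90 ± 0.38), and the apoplastic peroxidase gene PRXCB, from 68.1, 59.6 and 76.7 CPM to 2914, 1839.8 and 3516 CPM (5.29 ± 0.50). No mock value of these genes reached the lowest of its Pma values.

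**Figure D3:**
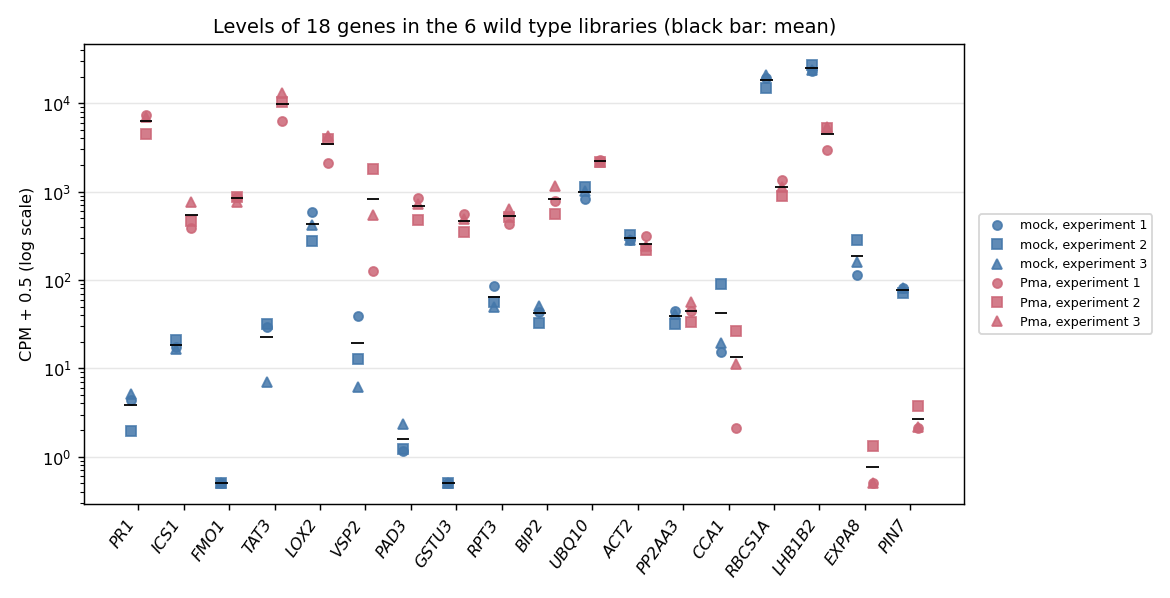
Levels of 18 genes as CPM + 0.5 on a log scale, with mock libraries in blue, Pma libraries in red, a marker shape for each of the 3 experiments and a black bar for the group mean. PR1, FMO1, TAT3, PAD3 and GSTU3 are under 32 CPM in mock and at or above 344 CPM in Pma, RBCS1A and LHB1B2 fall, ACT2, PP2AA3 and CCA1 overlap between the groups, and VSP2 ranges from 125 to 1781 CPM among the Pma libraries.

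Jasmonate genes rose in the same leaves as salicylic acid genes. Of 12 tested synthesis genes 9 rose and none fell (median 2.74), and of 17 tested genes of outputs and turnover 15 rose and 1 fell (PDF1.2; median 5.77, or 5.35 once genes without counts in a group are set to their bound). LOX2, the plastid lipoxygenase of the pathway, was at 581, 273 and 418 CPM in mock and 2122, 3929.7 and 4270.3 CPM in Pma (3.05 ± 0.46, adjusted p = 7.61e-07). OPR3, which reduces the pathway's cyclic intermediate, rose from 24.7, 11.6 and 16.8 CPM to 264, 311 and 411 CPM (4.22 ± 0.42). TAT3, a tyrosine aminotransferase induced by jasmonate and coronatine, had the largest CPM gain of all genes, from 29.2, 31.3 and 6.54 CPM to 6358, 10339 and 13022 CPM (8.74 ± 1.1, adjusted p = 2.8e-08). Its lowest mock value and its highest Pma value both came from experiment 3. JRG21, a jasmonate-regulated oxygenase gene, went from 1.3, 1.45 and 0.935 CPM to 808, 872 and 1347 CPM (9.51 ± 0.85). PDF1.2, a defensin gene of the ethylene and jasmonate branch, went from 11.7, 0 and 6.54 CPM to 0.535, 0 and 2.24 CPM (-2.83 ± 1.05, adjusted p = 0.018), with no count in experiment 2 and overlapping groups.

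The vegetative storage protein gene VSP2, a wound-type jasmonate output, varied widely between experiments. It was at 38.9, 12.4 and 5.61 CPM in mock and 125, 1781 and 545 CPM in Pma (5.31 ± 1.24, adjusted p = 0.000358). Experiment 1 had its highest mock value and its lowest Pma value. Its regulator MYC2 was at 19.5, 18.2 and 19.6 CPM in mock and 75.4, 222 and 165 CPM in Pma (2.89 ± 0.46, adjusted p = 2e-06), also lowest in experiment 1 among the Pma libraries. Neither gene overlapped between groups.

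The JAZ genes, which encode repressors of MYC2 that jasmonate removes, rose with the outputs, 10 of 11 tested members in all (median 3.44). JAZ1 went from 11.7, 7.27 and 12.2 CPM to 753, 552 and 800.2 CPM (6.10 ± 0.48, adjusted p = 5.84e-12). JAZ10 went from 0.649, 0.727 and 0 CPM to 80.7, 195 and 303 CPM, a ratio of 381-fold (105 to 3149), and JAZ8, which resists degradation, from 0, 0.727 and 0 CPM to 37.4, 20.4 and 77.7 CPM, a ratio of 191-fold (33.9 to 7569). Both were highest in experiment 3. JAZ3 was not called, at 0.42 ± 0.32 (adjusted p = 0.243).

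Genes that make tryptophan and the indole defence compounds derived from it rose together. Of 17 genes of tryptophan, camalexin and indole glucosinolates 14 rose and 1 fell (MYB34; median 4.02). ASA1, the anthranilate synthase subunit that starts tryptophan synthesis, rose from 35, 19.6 and 39.3 CPM to 941, 682 and 965 CPM (4.81 ± 0.34, adjusted p = 1.16e-12), and TSA1, the tryptophan synthase alpha chain that acts last, from 55.8, 45.8 and 52.4 CPM to 1292, 591 and 733 CPM (4.02 ± 0.30). CYP79B2, which turns tryptophan into the oxime shared by these products, rose from 31.1, 18.2 and 14 CPM to 702, 349 and 650.4 CPM (4.67 ± 0.40). PAD3, the last enzyme of the phytoalexin camalexin, went from 0.649, 0.727 and 1.87 CPM to 843, 476 and 719.7 CPM (9.29 ± 0.86, adjusted p = 5.59e-11). For CYP79B2 and PAD3 the Pma library of experiment 2 was the lowest, and no groups overlapped.

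Aliphatic glucosinolate genes went the other way, with 11 of 14 tested genes lower and none higher (median -3.35). MYB28 and MYB29, the transcription factors of that branch, went from 62.3, 99.6 and 58.9 CPM to 6.42, 0 and 2.79 CPM (-4.43 ± 0.60) and from 40.2, 33.5 and 23.4 CPM to 1.07, 0 and 1.12 CPM (-5.26 ± 0.67). The indole branch factor MYB51 rose from 9.08, 5.82 and 3.74 CPM to 109, 66 and 78.2 CPM (3.77 ± 0.36, adjusted p = 2.19e-10). Of 12 tested genes of phenylpropanoids and flavonoids 4 rose (PAL1, C4H, 4CL2 and PAP1) and 4 fell (PAL3, TT4, F3H and UGT78D1), counts near the shares of all tested genes (32.3% higher and 34.0% lower). PAL1, an entry enzyme, rose from 33.7, 45.8 and 43.9 CPM to 107, 129 and 161 CPM (1.67 ± 0.34). TT4 (chalcone synthase), the first flavonoid enzyme, fell from 44.1, 41.5 and 58 CPM to 0, 8.96 and 1.12 CPM (-4.36 ± 0.76, adjusted p = 4.91e-06). The Pma library of experiment 2 had the highest TT4 level of the 3, and no Pma value reached the mock values.

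Among transcription factors, most tested WRKY and NAC genes rose. Of 72 WRKY genes 47 were tested, 33 rose and 1 fell (WRKY3; median 3.11), and of 43 tested NAC genes 37 rose and 1 fell (LOV1; median 2.58, or 2.44 once genes without counts in a group are set to their bound). The families MYB (18 higher and 14 lower of 43), ERF (6 and 2 of 17, the lower ones being ERF8 and AT5G51190) and TCP (3 and 9 of 16, the higher ones being PTF1, TCP8 and TCP9) were mixed. Over all tested genes 32.3% rose and 34.0% fell, and the lower MYB count and the higher ERF count lie near these shares. The tested members passed a filter on low counts that a gene present in 1 group alone can pass through that group.

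WRKY45 and WRKY75, factors known from senescence and pathogen responses, were almost unseen in mock leaves. WRKY45 went from 0, 0.727 and 0 CPM to 195, 166 and 179 CPM, a ratio of 725-fold (129.8 to 28670.0), and WRKY75 from 0 in all mock libraries to 201, 178 and 189 CPM, at least 253-fold higher. Both were nearly level over the Pma libraries. WRKY70, which acts in salicylic acid signalling, was already at 173, 70.6 and 79.5 CPM in mock, highest in experiment 1, and reached 1825, 1975 and 1646 CPM (4.20 ± 0.56, adjusted p = 9.26e-08). WRKY3, the member that fell, changed by -1.40 ± 0.34.

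Of the NAC genes, NAC019 went from 2.6, 1.45 and 0.935 CPM to 455, 387 and 683 CPM (8.08 ± 0.60, adjusted p = 2.01e-12) and NAC3 (AT3G15500) from no count in mock to 120.3, 53.8 and 111 CPM, at least 133-fold higher. Both are relatives known to act downstream of jasmonate and coronatine. NAC6 (AT5G39610), a regulator of leaf senescence, had no count in mock and 111, 105 and 83.3 CPM in Pma, at least 132-fold higher. NAC053, which drives proteasome genes under proteasome stress, rose from 3.89, 5.09 and 6.54 CPM to 75.9, 82.3 and 79.9 CPM (3.94 ± 0.33, adjusted p = 2.4e-11). None of the 4 overlapped between groups.

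Promoters of these groups were read for short motifs that the factors above are known to bind. The window was the 250 bases before the annotated start of 15077 tested genes in TAIR10.1 (RefSeq), searched on both strands, and a match is a description of letters, not of binding. The W box (TTGACC or TTGACT), which WRKY factors bind, was in 28.49% of all these promoters. It was in 34.31% of those of genes that rose, 23.56% of those that fell and 42.4% of those that rose more than 16-fold. By list, those with more genes higher than lower lay on both sides of the share of all promoters. Pattern recognition (61.11%), glutathione transferases (51.72%) and WRKY genes (36.17%) were above it. Salicylic acid synthesis and signalling (13.04%), jasmonate outputs and turnover (11.76%) and NAC genes (11.63%) were below it. The TGA motif (TGACG), bound by the partners of NPR1, was in 19.77% of all promoters and in 25.09% of those of genes that rose more than 16-fold. The G box (CACGTG), bound by MYC2 and many other factors, was in 7.74% of all promoters. It was in 36.36% (4 of 11) of the JAZ promoters, in 6 of 13 promoters of the endoplasmic reticulum folding list and in 6 of 19 of the starch list. Lists without a G box included salicylic acid synthesis and signalling (0 of 23) and expansins (0 of 15). A TGAC core counted in a W box is never counted in a TGA motif, and the evening element core (AATATCT), a clock motif, was in 10.45% of all promoters. A motif of NAC053 and its close relative, TGGGC (the core of the proteasome-related element), was added after the results were seen. It was in 26.78% of all promoters, 23.63% of those that rose, 30.71% of those not called and 14.37% of those that rose more than 16-fold. By list, the motif was in 19 of 38 proteasome promoters, 6 of 13 of endoplasmic reticulum folding, 11 of 28 of autophagy and 4 of 10 of chlorophyll breakdown. Other lists with more genes higher than lower lay on both sides of the share of all promoters. Pattern recognition (5.556%) and tryptophan, camalexin and indole glucosinolates (11.76%) were below it. Cyclic nucleotide gated channels (35.71%), heat shock proteins (33.33%) and MAP kinases (27.03%) were above it.

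The following windows are shown because they hold the motif of the group the gene belongs to, in capitals, written 5′ to 3′ on the gene's strand and ending at the base before the annotated start. GSTU3 (chr2:12629641-12629890, minus strand) and CYP710A1 (chr2:14541618-14541867, minus strand) are the 2 promoters with 2 W boxes each among the 12 genes with the largest fold rise, and in CYP710A1 the W boxes share 1 base. WRKY45 (chr3:327413-327662, minus strand) is the WRKY gene with the lowest adjusted p. EXPA8 (chr2:16950706-16950955, minus strand), an expansin gene among the largest falls, is shown as a case of 2 W boxes before a gene that fell.
GSTU3: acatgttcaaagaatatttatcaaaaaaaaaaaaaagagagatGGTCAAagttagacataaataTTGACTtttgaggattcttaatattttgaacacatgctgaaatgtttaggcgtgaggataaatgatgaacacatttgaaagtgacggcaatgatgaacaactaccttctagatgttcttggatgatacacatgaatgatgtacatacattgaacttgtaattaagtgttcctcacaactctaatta
CYP710A1: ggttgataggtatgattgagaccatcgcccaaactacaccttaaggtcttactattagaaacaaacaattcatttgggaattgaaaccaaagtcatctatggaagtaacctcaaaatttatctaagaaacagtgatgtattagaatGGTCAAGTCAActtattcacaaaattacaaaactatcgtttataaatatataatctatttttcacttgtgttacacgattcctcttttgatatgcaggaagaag
WRKY45: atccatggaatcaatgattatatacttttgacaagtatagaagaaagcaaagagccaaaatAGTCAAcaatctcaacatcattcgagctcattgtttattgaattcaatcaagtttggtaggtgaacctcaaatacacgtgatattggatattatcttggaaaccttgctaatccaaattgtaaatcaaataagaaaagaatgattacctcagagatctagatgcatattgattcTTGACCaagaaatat
EXPA8: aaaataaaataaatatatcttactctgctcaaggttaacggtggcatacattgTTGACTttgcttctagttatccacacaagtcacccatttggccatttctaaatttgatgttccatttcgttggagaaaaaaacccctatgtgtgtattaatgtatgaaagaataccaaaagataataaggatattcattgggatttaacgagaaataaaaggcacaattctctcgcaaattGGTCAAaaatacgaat

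The next windows show TGGGC in capitals before the proteasome genes with the lowest adjusted p, RPT1A (chr1:20068501-20068750, minus strand) and RPT3 (chr5:23568802-23569051, plus strand), and the G box in capitals before JAZ8 (chr1:10596102-10596351, plus strand). In both proteasome promoters the 2 matches lie on opposite strands, within the 100 bases before the start.
RPT1A: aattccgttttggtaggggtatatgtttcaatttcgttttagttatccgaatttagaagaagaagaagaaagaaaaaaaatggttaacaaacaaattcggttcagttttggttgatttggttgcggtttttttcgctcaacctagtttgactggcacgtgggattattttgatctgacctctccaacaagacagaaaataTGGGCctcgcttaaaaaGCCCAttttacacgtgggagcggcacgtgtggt
RPT3: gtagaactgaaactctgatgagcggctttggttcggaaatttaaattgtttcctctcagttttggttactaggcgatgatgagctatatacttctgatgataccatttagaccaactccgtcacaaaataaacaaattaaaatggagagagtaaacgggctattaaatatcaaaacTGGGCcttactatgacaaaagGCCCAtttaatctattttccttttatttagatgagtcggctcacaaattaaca
JAZ8: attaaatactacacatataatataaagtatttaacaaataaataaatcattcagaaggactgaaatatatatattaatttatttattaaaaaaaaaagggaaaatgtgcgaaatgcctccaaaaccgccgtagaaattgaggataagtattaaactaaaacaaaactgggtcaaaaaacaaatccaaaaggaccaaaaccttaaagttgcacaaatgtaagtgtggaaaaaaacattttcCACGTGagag

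**Figure D4:**
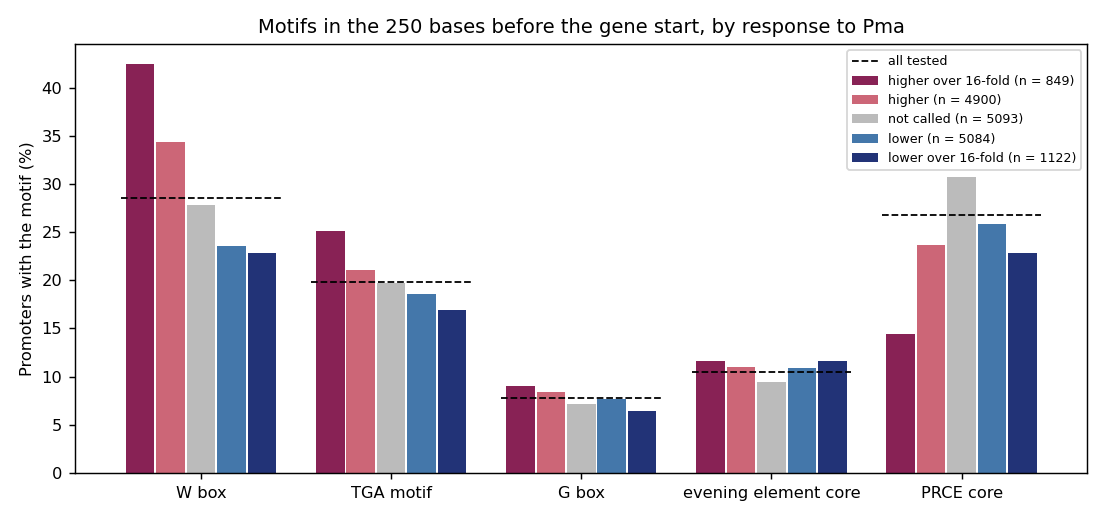
Percent of promoters (250 bases before the start) that hold each of 5 motifs, with bars for genes grouped by their response to Pma and a dashed line for all tested genes, the classes over 16-fold being part of the wider classes. The W box share goes from 42.4% in genes that rose more than 16-fold to 22.82% in those that fell more than 16-fold, while the G box share lies between 6.417% and 9.069% in every class.

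PR1, FMO1, SBT3.3, UGT76B1, NAC6 and CYP71A12, 6 of the 12 largest fold rises, held no W box in this window. SBT3.3, a subtilase tied to immune priming, had no count in mock and 393, 249 and 455 CPM in Pma, at least 504-fold higher. GSTU3, a glutathione transferase, had no count in mock and 549.7, 344 and 489.5 CPM in Pma, at least 632-fold higher. CYP710A1, the desaturase that makes the sterol stigmasterol, had no count in mock and 220.3, 135 and 211 CPM in Pma, at least 259.9-fold higher. KTI1, a trypsin inhibitor, went from 1 count in all mock libraries to 684, 734 and 1698 CPM, a ratio of 4255-fold (763 to 168100.0), highest in experiment 3.

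Genes of perception and early signalling rose as well. Of 18 tested genes of pattern recognition 15 rose and none fell (median 2.22). BAK1, the co-receptor of FLS2 and other pattern receptors, rose from 35, 17.5 and 21.5 CPM to 128, 95.3 and 81 CPM (2.05 ± 0.24, adjusted p = 6.21e-09), and SOBIR1, the adaptor kinase of receptor-like proteins, from 31.1, 24 and 15 CPM to 248, 289.9 and 268 CPM (3.55 ± 0.45). The flagellin receptor gene FLS2 was not called, with 16.2, 10.9 and 18.7 CPM in mock and 20.9, 11.4 and 5.03 CPM in Pma (-0.43 ± 0.58, adjusted p = 0.524). Of 71 tested intracellular NLR receptor genes 32 rose, 10 fell and 29 were not called (median 0.51). Over all tested genes 32.3% rose and 34.0% fell. AT4G19530, a TIR-type receptor gene, fell from 130.4, 108 and 119 CPM to 2.14, 2.44 and 2.24 CPM (-5.72 ± 0.49, adjusted p = 2.89e-11), whereas AT5G41750 of the same type rose from 11.7, 3.64 and 6.54 CPM to 122, 108 and 115 CPM (4.0 ± 0.41).

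Among kinase and calcium families, to be read against 32.3% higher and 34.0% lower of all tested genes, counts were 24 higher and 4 lower of 37 tested genes of MAP kinase cascades, 14 and 2 of 22 calcium-dependent protein kinases, 5 and 0 of 7 wall-associated kinases, 6 and 3 of 11 calmodulin-like genes and 8 and 4 of 14 cyclic nucleotide gated channels. The lower ones were MPK9, MPK16, MPK18 and YDA among the MAP kinase genes, CPK13 and CPK15, the calmodulin-like TCH2, CML23 and CAM9, and the channel genes DND1, CNGC5, CNGC6 and CNGC9. MKK4, a kinase of the pattern-triggered cascade, rose from 9.08, 10.2 and 6.54 CPM to 82.9, 79.8 and 104 CPM (3.36 ± 0.32, adjusted p = 1.42e-10). CML41, a calmodulin-like protein of plasmodesmata, rose from 1.95, 2.18 and 0 CPM to 531, 710.2 and 651 CPM (8.65 ± 0.75, adjusted p = 3.12e-11). WAK1, a receptor for pectin fragments, rose from 53.2, 37.1 and 59.8 CPM to 1037, 1046 and 902 CPM (4.32 ± 0.56). CNGC10, a channel gene, went from 0, 0 and 0.935 CPM to 72.7, 53.8 and 70.4 CPM, a ratio of 268-fold (47.7 to 10600.0). MLO2, the susceptibility gene of powdery mildew, rose from 86.3, 96.7 and 90.69 CPM to 475, 454 and 429 CPM (2.30 ± 0.27), 5 of 7 tested family members rising and 2 (MLO1 and MLO8) falling. These genes gave no overlap between groups.

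Genes of protein quality control rose. All 38 tested proteasome genes rose (median 2.06), 34 of them past 2-fold, against 17.9% of all tested genes past 2-fold in that direction, and their share of the counts went from 0.187, 0.172 and 0.174% in mock to 0.956, 0.946 and 1.33% in Pma. RPT3, an ATPase of the regulatory particle, went from 85.6, 56 and 48.6 CPM to 425, 516 and 635 CPM (3.01 ± 0.29, adjusted p = 3.05e-10), and PAG1, a subunit of the core particle, from 114, 106 and 132 CPM to 460.4, 456 and 677 CPM (2.15 ± 0.22, adjusted p = 7.24e-10). The Pma library of experiment 3 was the highest for both. All 13 genes of folding in the endoplasmic reticulum rose (median 3.18). BIP2, the luminal HSP70 chaperone, went from 42.8, 32 and 50.5 CPM to 784, 557 and 1154 CPM (4.29 ± 0.42), and BZIP60, the factor activated by unfolded proteins, from 35.7, 40 and 28 CPM to 255, 269.6 and 467 CPM (3.23 ± 0.32), both again highest in experiment 3.

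Of 24 tested heat shock genes 16 rose and 2 fell (median 1.31). HSP90.1, the stress-induced cytosolic HSP90, rose from 9.08, 6.55 and 5.61 CPM to 377, 875 and 547 CPM (6.26 ± 0.70, adjusted p = 3.27e-09), highest in experiment 2. The genes that fell were CR88, the HSP90 of the plastid (-1.95 ± 0.40), and HSP93-III of the plastid import machinery (-1.73 ± 0.31). Of 28 tested autophagy genes 16 rose and none fell (median 0.73), and 7 of them had a 95% interval within 2-fold. APG8A, a ubiquitin-like protein of the autophagosome membrane, rose from 31.8, 43.6 and 22.4 CPM to 196, 234 and 280.0 CPM (2.85 ± 0.25, adjusted p = 5.59e-11).

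Detoxification genes were among the largest gains. Of 29 tested glutathione transferase genes 20 rose and 6 fell (median 3.86, or 2.24 once genes without counts in a group are set to their bound). GSTF2 went from 115, 120.0 and 137 CPM to 7083, 5761 and 4634 CPM (5.53 ± 0.62, adjusted p = 3.61e-09), highest in experiment 1, and GSTU19 from 342, 324 and 383 CPM to 5026, 4652 and 5553 CPM (3.86 ± 0.33). GSTU4, a close neighbour of GSTU3 with which tags could be shared, went from 0.649, 1.45 and 0 CPM to 875, 853 and 707 CPM, a ratio of 1073-fold (367 to 5207). GSTU20, a neighbour of GSTU19, fell from 485, 446 and 485 CPM to 44.4, 2.44 and 12.9 CPM (-4.75 ± 0.93). Of 110 tested cytochrome P450 genes 44 were higher and 43 lower, beside 32.3% and 34.0% of all tested genes, and of 46 tested UDP-glycosyltransferases 20 rose and 11 fell. UGT76E12 had 1 count over the mock libraries and 122, 143 and 267 CPM in Pma, a ratio of 718-fold (129 to 28410.0).

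Growth genes fell, and cell wall genes were among the largest folds. Of 15 tested expansin genes, which loosen walls during expansion, 13 fell and 1 rose (EXPA9; median -5.86, or -4.11 once genes without counts in a group are set to their bound). EXPA8 went from 114, 283 and 157 CPM to 0, 0.814 and 0 CPM, a ratio of 899-fold (161 to 35550.0), and EXPA5 from 77.9, 78.6 and 99.1 CPM to no count, at least 136-fold lower. Xyloglucan endotransglucosylase genes went both ways, with 7 higher and 9 lower of 20. Among all tested genes 32.3% were higher and 34.0% lower, so the higher count is near its share. XTH31 went from 84.4, 75.6 and 200.1 CPM to no count, at least 183-fold lower, and XTH24 rose from 45.4, 23.3 and 21.5 CPM to 656, 423 and 607 CPM (4.33 ± 0.42, adjusted p = 3.06e-10). GASA6, a gibberellin-regulated growth gene, went from 364, 642 and 469 CPM to 0, 0.814 and 1.12 CPM, a ratio of 795-fold (272 to 3861), and HAT1, a homeobox-leucine zipper factor, from 111, 56 and 30.9 CPM to no count, at least 115-fold lower. ELP, an extensin-like protein gene, fell from 1769, 1253 and 1728 CPM to 3.21, 0.814 and 5.59 CPM (-9.01 ± 1.13). Of 21 tested aquaporins 14 fell and 3 rose (SIP2;1, SIP1A and RD28), DELTA-TIP of the vacuole membrane going from 519.7, 921 and 598 CPM to 7.49, 11.4 and 12.3 CPM (-5.98 ± 0.66, adjusted p = 2.52e-09).

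Auxin genes mostly fell. Of 32 tested SAUR genes, which promote cell expansion, 22 fell and 9 rose (median -5.99, or -4.31 at the bounds), and of 21 tested AUX/IAA repressor genes 16 fell and 2 rose (IAA18 and IAA28; median -3.02). IAA7 fell from 199.8, 345 and 210.4 CPM to 13.4, 28.5 and 18.4 CPM (-3.66 ± 0.32, adjusted p = 4.06e-11). SAUR36, known as a senescence-associated member, went from 0.649, 0 and 0 CPM to 29.9, 35 and 33.5 CPM, a ratio of 129.7-fold (22.9 to 5153). All 3 tested auxin efflux carrier genes fell (PIN3, PIN4 and PIN7), PIN7 from 79.8, 70.6 and 80.4 CPM to 1.6, 3.26 and 1.68 CPM (-5.17 ± 0.39, adjusted p = 3.4e-12). None of these named genes overlapped between groups.

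Cytokinin and gibberellin genes went both ways, and brassinosteroid genes were lower or not called. The shares of all tested genes were 32.3% higher and 34.0% lower. Of 13 tested response regulators 9 fell and 2 rose (RR2 and RR10), ARR9, a cytokinin-induced repressor, going from 49.3, 71.3 and 55.2 CPM to 1.07, 0.814 and 1.68 CPM (-5.48 ± 0.39, adjusted p = 8.96e-13), whereas 3 of 4 tested cytokinin oxidases rose (CKX4, CKX5 and CKX7) and CKX6 fell, CKX4 going from 8.44, 9.46 and 9.35 CPM to 44.4, 48.1 and 75.4 CPM (2.59 ± 0.39). The fall of CKX6 (-1.66 ± 0.68) did not pass with libraries scaled by their totals (-1.26), without experiment 1 (-1.27) or 2 (-1.44), or without the mock library of experiment 1 (-1.37) or 2 (-1.09) or the Pma library of experiment 1 (-1.33). CPD, an enzyme of brassinosteroid synthesis, fell from 156, 213 and 146 CPM to 3.74, 8.96 and 6.71 CPM (-4.75 ± 0.45), and 7 of 8 genes of that list fell. GA3OX1, which makes active gibberellin, went from 14.3, 12.4 and 15 CPM to 0, 0 and 0.559 CPM, a ratio of 67.4-fold (11.6 to 2712), and GA2OX2, which removes it, rose from 3.24, 0 and 0.935 CPM to 19.3, 20.4 and 21.2 CPM (3.74 ± 0.63). Of 30 cyclin genes 7 were tested, CYCD5;1 rose and 4 fell (CYCD1;1, CYCD3;1, CYCD3;2 and CYCD3;3).

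**Figure D5:**
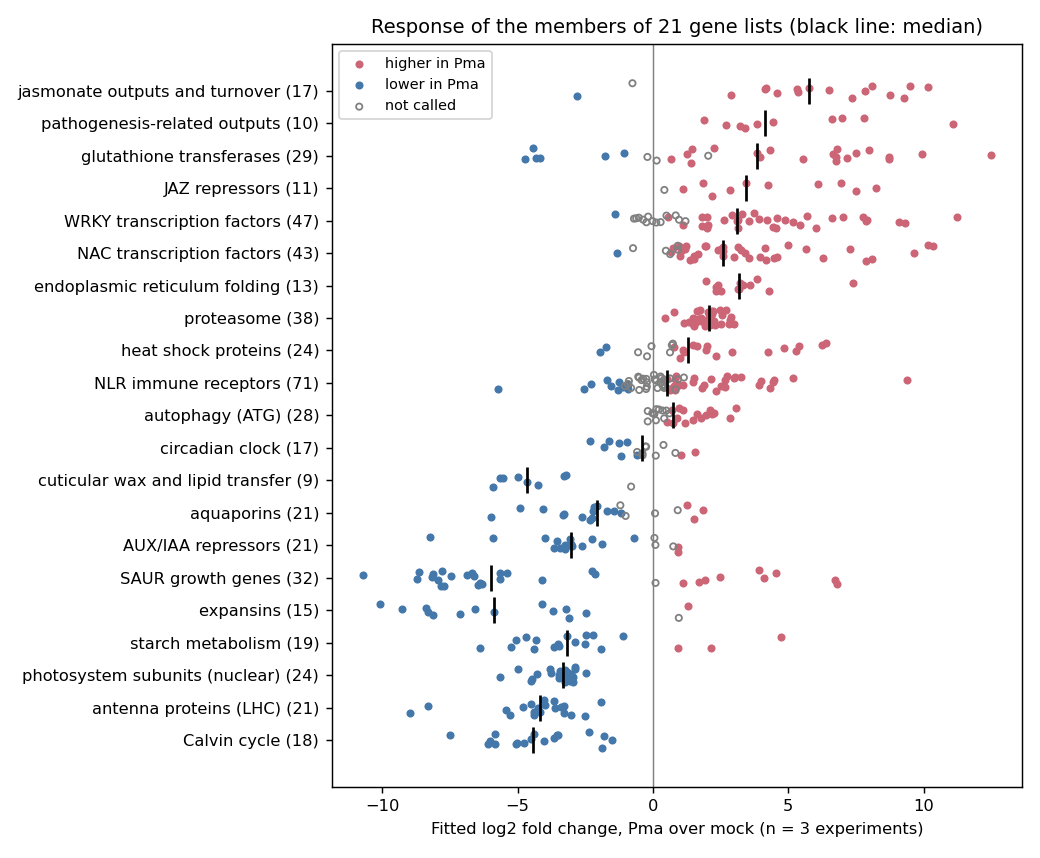
Fitted log2 fold changes of Pma over mock (n = 3 experiments) for each tested member of 21 gene lists, with red for higher, blue for lower, open grey for not called and a black line for the list median. The proteasome members sit in a narrow band above 0 (median 2.06), Calvin cycle, antenna and photosystem members all lie below 0, and glutathione transferases and SAUR genes spread to both sides.

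Abscisic acid, clock and iron lists each held genes that rose and genes that fell, beside 32.3% higher and 34.0% lower of all tested genes. Of 11 tested abscisic acid genes 6 rose and 3 fell (COR15A, LTI78 and CYP707A3). The phosphatase genes ABI1 (2.56 ± 0.26) and HAI1 (6.41 ± 0.73), which damp the hormone's signal, rose, while COR15A, a cold and drought output, fell from 737, 149 and 375 CPM to 15.5, 11.4 and 12.3 CPM (-4.84 ± 0.92, adjusted p = 2.7e-05). Of 17 clock genes 2 rose (TOC1 and ELF4) and 7 fell. CCA1, a morning gene, was at 14.9, 90.2 and 18.7 CPM in mock and 1.6, 26.1 and 10.6 CPM in Pma (-1.82 ± 0.43, adjusted p = 0.000388), and GI, an evening gene, at 59, 13.8 and 38.3 CPM and 31.6, 5.7 and 12.3 CPM (-1.25 ± 0.24). Experiment 2 had the highest CCA1 and the lowest GI of both groups, so these levels overlapped between groups although both genes were lower in Pma in every experiment. Without the experiment as a block neither call held, at -1.75 for CCA1 and -1.14 for GI. Of 8 tested iron genes 1 rose (FER1), 3 fell (NAS1, NAS4 and FER3) and 4 were not called. NAS1, a nicotianamine synthase gene, was at 9.73, 10.9 and 7.48 CPM in mock and had no count in Pma, and its relative NAS4 went from 13, 9.46 and 9.35 CPM to 1.6, 0.814 and 0 CPM (-3.62 ± 0.81). The ferritin gene FER3 went from 13, 11.6 and 26.2 CPM to 8.56, 2.44 and 9.5 CPM (-1.25 ± 0.47, adjusted p = 0.0192), a call lost with libraries scaled by their totals (-0.86), without experiment 2 (-1.05) or 3 (-1.12), and without the mock library of experiment 2 (-1.14) or 3 (-0.89) or the Pma library of experiment 2 (-0.99). FER1, an iron storage ferritin, was at 20.8, 225 and 119.7 CPM in mock and 226, 726 and 538 CPM in Pma (2.36 ± 0.55, adjusted p = 0.000327), a call that was lost without the block (2.02), and experiment 1 was the lowest in both groups. SAG13, a senescence and defence marker, rose from 5.19, 3.64 and 2.8 CPM to 1339.5, 1867 and 2761 CPM (8.92 ± 0.90, adjusted p = 5.1e-10), while the late senescence gene SAG12 had 0 counts in all 6 libraries, which allows up to 3 counts a group.

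Genes often used as references moved little on the TMM scale. ACT2 was at 281, 319 and 285 CPM in mock and 313, 217 and 241 CPM in Pma (-0.22 ± 0.22, adjusted p = 0.378), and PP2AA3 at 43.5, 31.3 and 40.2 CPM and 44.4, 32.6 and 56.4 CPM (0.20 ± 0.18, adjusted p = 0.313). Both overlapped between groups. UBQ10, a polyubiquitin gene, rose from 819.5, 1132 and 1022 CPM to 2300.0, 2184 and 2135 CPM (1.17 ± 0.23, adjusted p = 4.52e-05) without overlap, and YLS8 rose by 0.41 ± 0.15 (adjusted p = 0.017). The YLS8 call was lost with upper quartile scaling (0.28) and without experiment 1 (0.39) or 3 (0.27), and PP2AA3 passed with libraries scaled by their totals (0.61) and without the mock library of experiment 1 (0.50). In all, 6 of 7 reference genes and 2428 of the 5110 genes that were not called had a 95% interval within 2-fold, and for the other 2682 the interval reached past 2-fold.

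Markers of leaf cell types were read as a check on the samples. The mesophyll markers, antenna and Rubisco genes, were the most abundant transcripts of mock leaves. All 4 tested epidermis markers fell, their summed share being 0.135, 0.127 and 0.132% in mock and 0.00694, 0.00441 and 0.0036% in Pma, and ATML1, an epidermal homeobox gene, went from 46.1, 64.7 and 50.5 CPM to 5.35, 3.26 and 5.03 CPM (-3.48 ± 0.36). Most counts of that share came from LTP1, with 4847 in mock and 104 in Pma, beside 614 and 54 for FDH and 278 and 31 for PDF2. The wax and lipid transfer list, made in the epidermis and also holding LTP1, had 8 of 9 tested genes lower. Of 3 tested guard cell markers 1 rose and 2 fell. The potassium channel gene KAT1 rose from 36.3, 40.7 and 30.9 CPM to 93.6, 132 and 123 CPM (1.68 ± 0.24). CYP86A2, a cytochrome P450 gene of cutin synthesis, fell from 141, 203 and 139 CPM to 7.49, 6.52 and 8.38 CPM (-4.38 ± 0.45), and MYB60 went from 3.24, 13.1 and 4.67 CPM to 0.535, 0.814 and 0 CPM, a ratio of 17.2-fold (4.33 to 149). Phloem and vascular markers held 0.0453, 0.0475 and 0.0317% of the counts in mock and 0.0522, 0.0439 and 0.0427% in Pma, 2 of 5 fell and 3 had an interval within 2-fold. The single tested trichome marker, TRY, fell by 2.82 ± 0.60 on the log2 scale. Of the untested markers, PDF1 of the epidermis had 1 count in mock and 0 in Pma, HT1 of guard cells 8 and 6, GL2 of trichomes 20 and 1, and GL3 of trichomes 0 and 1. The part of cell types in the results above was not tested.

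The wild type response was then set against that of sid2, which lacks functional ICS1, and of cbp60a, a mutant of a calmodulin-binding protein gene, with the difference of responses tested in the same fit. For cbp60a, 0 genes passed with edgeR (smallest adjusted p = 0.155), 866 genes had an unadjusted p under 0.05, and DESeq2 called 0. Not passing does not make the responses equal. The log2 difference, wild type minus cbp60a, was 5.22 ± 1.69 for PR1 (edgeR adjusted p = 0.506) and 0.08 ± 0.42 for GSTU19. For sid2, 262 genes (1.73%) differed, with a larger log2 change in wild type for 137 and a smaller one for 125. Of the 137, 99 had risen in wild type, and of the 125, 80 had fallen in wild type. PCR1, a membrane protein of metal transport, was at 43.5, 67.6 and 43 CPM in wild type mock and 6764, 6772 and 5898 CPM in wild type Pma, but at 70.7, 15.1 and 50.7 CPM in sid2 mock and 48.4, 25 and 44.3 CPM in sid2 Pma. The responses differed by 7.07 ± 1.25 (adjusted p = 0.00362). PR1 differed by 8.28 ± 1.94 (adjusted p = 0.0242) and WRKY70 by 3.56 ± 0.72 (adjusted p = 0.00932). The difference of ICS1, the gene that sid2 affects, did not pass (4.27 ± 1.19, adjusted p = 0.0533). The count for sid2 went from 262 to 2 without experiment 2, to 60 without the mock library of experiment 1 and to 36 without the block.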

How the data were processed

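Leaves of 14 groups were profiled by Smart-3SEQ, and the 6 wild type libraries are described here. Per the submitters' processing notes, bcl2fastq 2.17.1.14, STAR 2.4.2a and the TAIR10 build were used. Per the labels' protocols, a molecular tag of 5 bases with the GGG after it was trimmed (8 bases). The deposited table holds raw counts per locus that the authors made for 24843 loci in 42 libraries. The counting tool, the annotation release, the use of strand and the use of the molecular tags are not given in the sources used here, so tags of overlapping or antisense genes cannot be told apart and counting errors may include amplification.

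Counts were tested with edgeR 4.0.16 (R 4.3.3) by the quasi-likelihood test on all 42 libraries, with 14 group terms, the experiment as a block and 26 residual degrees of freedom, TMM factors, filterByExpr (minimum count 10, minimum total 15) and Benjamini-Hochberg adjustment over 15161 genes at 0.05. The glmTreat test used a 2-fold threshold. Differences between genotypes were interaction contrasts of the same fit. A standard error is |log2 fold change| over the root of the F statistic. P-values rest on the spread left after the group and experiment terms. That spread was estimated from all 42 libraries of the 3 independent experiments, not from the wild type pairs alone. Where a group had no count, the fold is a bound that gives that group 3 counts in all, and where it had 1 to 3 counts the ratio has an exact 95% counting interval, which covers counting error only. The script was tested on simulated data with far fewer changed genes than here, so scaling under a shift this wide was not tested.

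The design text states that each experiment held 1 sample of every group, which is the source of the pairing. Deviations of wild type mock and Pma libraries from their group means correlated within experiments 1, 2 and 3 at r = 0.267, 0.212 and -0.034, and over all groups at 0.372, 0.351 and 0.133.

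Library totals were 1042600 to 1710141 counts, so 1 count was worth 0.535 to 0.935 CPM. The table had 0 columns that could not be mapped. Replicates of a group differed beyond sampling noise (chi-square per degree of freedom 3.38 to 10.6).

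Gene names, coordinates and promoters came from TAIR10.1 (RefSeq), in which 24701 loci matched and 9956 had a symbol. The members and lists were chosen with earlier results of these data known, and some lists were trimmed by product name after values were seen. Named were the 12 largest gains and losses of mean CPM, the 12 largest rises and falls in fold change (at least 20 CPM in the higher group), up to 4 members a list by adjusted p, a fixed set of marker genes and 5 genes per direction of a response difference. The alternatives were other scaling factors, no filter, no replicate block, DESeq2 1.42.0, a fit of the wild type libraries alone, and leaving out experiments or libraries. Figures were drawn with matplotlib 3.10.9.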

Additional observations from a re-analysis of the deposited data

Results flagged for a closer look

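The log2 change from mock to Pma differed between wild type and sid2 for 262 genes by the test of the difference itself (edgeR, adjusted p under 0.05). The 5 genes with the lowest adjusted p in each direction are given here as log2 differences, wild type minus sid2. Larger and smaller refer to the signed log2 change, so a deeper fall in wild type counts as smaller. Larger in wild type were PCR1 by 7.07, PCC1 by 4.56, EXO by 3.98, HR3 by 3.37 and PLL4 by 2.173. PCC1 is a pathogen- and clock-responsive gene. In sid2, PCC1 was at 820, 106 and 167 CPM in mock and 37, 58.7 and 40 CPM in Pma. EXO was at 142, 7.19 and 1.61 CPM in sid2 mock and 64.0, 2.94 and 3.20 CPM in sid2 Pma, so experiment 1 stood apart. Its difference did not pass without the replicate block (4.55, adjusted p = 0.554).

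Smaller in wild type were GPX7 by -4.94, TT4 by -4.92, CYP81D4 by -2.42, PAT1 by -2.37 and TH9 by -1.82. The fitted log2 changes in sid2 itself were 4.75 for GPX7, 2.32 for TH9, 0.558 for TT4, 0.041 for CYP81D4 and -0.383 for PAT1. For TT4, CYP81D4 and PAT1 the wild type change was negative. Of these genes, only PAT1 also had a negative fitted change in sid2. Without experiment 2 no gene was called smaller in wild type and 2 were called larger, so neither these 5 genes nor the 5 named as larger kept their call (edgeR adjusted p from 0.11 to 0.16 for all 10). Without experiment 1 only PLL4 and PAT1 of the 10 were called, and without experiment 3 9 of the 10 were called, CYP81D4 not. Without the replicate block 5 genes were called smaller, 1 of them among those named here (TH9), and 4 of the 5 named as larger were called. GPX7, a glutathione peroxidase of the plastid, was at 1.41, 2.88 and 3.22 CPM in sid2 mock and 37, 105.0 and 62.4 CPM in sid2 Pma. TT4 was at 12.7, 28.1 and 37 CPM in sid2 mock and 14.9, 61.7 and 40 CPM in sid2 Pma. TH9, a thioredoxin, was at 17.7, 18.7 and 12.1 CPM in sid2 mock and 81.1, 83.7 and 81.6 CPM in sid2 Pma.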

How the results depend on the processing

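The counts of genes changed in wild type stayed within 1.5 times under every alternative run: 9301 without the replicate block, 9990 with RLE and 9977 with upper quartile factors, 10475 with library totals, 10503 without the filter, 9818 with DESeq2, 8225 with the wild type libraries alone and 8707 to 9682 with experiments or libraries left out. Of the wild type calls, 9040 (89.9%) held with library totals. For the sid2 difference, the count was 36 without the replicate block (31 larger and 5 smaller in wild type), 237 larger and 68 smaller with library totals, and 89 larger without the filter. With experiments or libraries left out it ranged from 2 to 205 (2 to 135 larger, 0 to 110 smaller); the lowest was without experiment 2, and it was 47 without experiment 1 and 57 without experiment 3. For cbp60a it was 0 throughout. With 150 bases before the start, the W box was in 19.55% of all promoters, 25.16% of higher, 15.15% of lower, 18.54% of not called, 30.86% of higher over 16-fold and 14.44% of lower over 16-fold, so the order of the classes was kept. Reversed signs were looked for only in named genes called in the main or the alternative fit and in list medians away from 0. Among these, signs reversed for ATMG01370, which ranged from -1.29 without experiment 2 to 0.023 without the mock library of experiment 3. With the wild type libraries alone, they reversed for the medians of phenylpropanoids and flavonoids (0.11) and gibberellin oxidases (-0.97). The cause was not tested. Of the values for named genes, 51 lost and 10 gained a call, and 4584 kept their side of the threshold. A change of sign in a gene that neither fit called is among the 4584. At these depths a gene under about 1 CPM rests on single counts.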
